A study of Mus musculus with 3 samples.

Results

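The genes described here are 7 precursors of retinal neuropeptides, Vip, Tac1, Tac2, Npy, Cck, Sct and Cartpt, out of the 18545 genes of a single-cell RNA-seq table of dissociated mouse retina. They were taken by name, with no measured value in the rule, and followed through every cluster and library, including the cells outside the amacrine clusters. Each of 3 groups was 1 pooled droplet library. The WT library held retinas of female and male C57BL/6J mice on plain chow. The rd10-vehicle library held retinas of female mice with the rd10 mutation of Pde6b, a subunit of the rod phosphodiesterase, on the same chow. The rd10-TMB library held retinas of female rd10 mice whose chow contained tamsulosin, metoprolol and bromocriptine, that is an alpha-adrenergic blocker, a beta-adrenergic blocker and an agonist of D2-like dopamine receptors. All mice were 8 weeks old, were labelled with the strain C57BL/6J and had lived in the dark, a condition that slows the rd10 degeneration. Per the labels, 1 retina of each of 4 mice went into a library, whereas the study's methods count fewer rd10 animals. Since each group was a single library, there was no replicate and no test, and the intervals below (95%, exact) cover counting error alone.

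Neuropeptides are cut from longer precursors by convertases, stored in dense core vesicles and released to act on G protein-coupled receptors, in most cases slowly and over some distance. In the retina they are best known from sparse amacrine cells, the inhibitory interneurons of the inner plexiform layer, where a peptide is kept beside GABA or glycine and a given cell type is often defined by the peptide it makes. Vip encodes vasoactive intestinal peptide, Tac1 substance P and neurokinin A, Tac2 neurokinin B, Npy neuropeptide Y, Cck cholecystokinin, Sct secretin and Cartpt the CART peptides. Transcription of several of these genes is known to respond to cAMP through the response element TGACGTCA, whose core is TGACG.

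The 300 bases around the start site of each member were read from RefSeq's promoter table (GRCm38.p6, the assembly called mm10), in which 7 of 7 members were matched. The core TGACG, read on both strands, was present in 4 of the 7 windows against 20.8% of the 32851 windows of the same length. The windows of Tac2, Npy and Sct held no match. The full element TGACGTCA was found for Cartpt alone among the members and in 1.79% of all windows. It contains the core on both strands, so the counts overlap. The element TGACTCA, read as TGAGTCA on the other strand, was in none of the 7 and in 5.20% of all windows. A match is a description of letters and not a site of binding. The 4 stretches are shown because they hold the core, with 1 stretch for each gene. Tac1 has another match 197 bases before its start site, on the opposite strand, which is not shown. Each has 60 bases, written along the strand of its gene, with the core in capitals (TGACG, or CGTCA where it lies on the opposite strand). They cover chr10:5639111-5639170 (plus strand) for Vip, chr6:7554990-7555049 (plus strand) for Tac1, chr9:121495710-121495769 (minus strand) for Cck and chr13:99900764-99900823 (minus strand) for Cartpt. The first capital letter lies 79, 43, 47 and 112 bases before the start site, in that order. The start sites are those of the promoter table, and for Vip and Cartpt they lie inside the annotated span of the gene.
Vip: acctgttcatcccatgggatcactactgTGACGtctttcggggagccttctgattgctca
Tac1: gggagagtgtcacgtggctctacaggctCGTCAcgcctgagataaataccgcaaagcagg
Cck: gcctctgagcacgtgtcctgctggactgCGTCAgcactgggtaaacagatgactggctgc
Cartpt: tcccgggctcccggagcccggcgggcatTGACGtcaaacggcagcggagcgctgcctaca

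The genes themselves lie at chr10:5639193-5647617 (Vip), chr6:7555061-7562978 (Tac1), chr10:127724478-127731768 (Tac2), chr6:49822710-49829507 (Npy), chr9:121489824-121495694 (Cck), chr7:141278329-141279174 (Sct) and chr13:99898483-99910179 (Cartpt). The span of Cck overlaps the annotated gene Gm38661, and whether the counting split reads between the pair was not tested.

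The WT, rd10-vehicle and rd10-TMB libraries held 4478, 5952 and 4812 cells, and a UMI of at least 1 member was found in 880, 558 and 532 of them. Where values for the libraries follow each other below, they keep this order. Median depth was 3509.5, 4811.5 and 4772.5 UMIs per cell. The authors' cluster numbers were used, and names ending in "-like" were rebuilt here from markers. Clusters 5 and 9 were amacrine-like, with 9 and 10 of 15 amacrine markers enriched, and held 756 cells in WT but 105 and 83 in the rd10 libraries. These were 16.9%, 1.76% and 1.72% of the cells. Clusters 6, 7, 10, 18 and 20 kept their numbers. Between 7 and 10 barcodes occurred in both libraries of a pair, and leaving out those 50 cells moved none of the 93 ratios beyond its counting interval. The WT library was not uniform: of 1750 cells marked by Xist alone, 7.94% (6.72 to 9.31) were amacrine-like, and of 1418 cells marked by Y-linked genes alone, 25.6% (23.3 to 28). Since both rd10 libraries came from females, a difference of WT from rd10 cannot be told apart from a difference between these mice or sexes.

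Each of the 7 genes had a lower CPM, the UMI count scaled to the total of the library, in rd10-vehicle than in WT, past 2-fold for 7 of 7 members against 13.5% of the 16798 genes with at least 20 UMIs over both libraries. In rd10-TMB this held for 6 of 7 members against 11.8% of 16418 genes. Vip was counted 307, 0 and 7 times in WT, rd10-vehicle and rd10-TMB, which put rd10-vehicle at least 201-fold below WT when the 0 is set at a floor of 3 counts. Tac1 had 593, 25 and 12 UMIs, and Tac2 had 197, 0 and 3. These genes were thus close to absent from whole rd10 libraries. Vip and Tac2, and Tac1 for rd10-TMB, reached the limit of 20 UMIs through WT alone, so their part in the counts of members is no independent result. Within WT, Vip stood at 0.522 CPM in the Xist-marked cells (4 UMIs in 1750 cells) and at 23.6 CPM in the Y-marked cells, so the 201-fold bound rests on the pooled WT level. Npy, with 699, 278 and 383 UMIs, and Cck, with 2000, 1132 and 1646, remained readily detected, and Cck in rd10-TMB was the exception to the 2-fold limit (log2 ratio to WT −0.91, −1.0 to −0.82). Sct had 154, 74 and 75 UMIs. Cartpt had 8126, 2831 and 767. Against the Xist-marked WT cells alone, the log2 ratio of Npy was −0.89 for rd10-vehicle and −0.09 for rd10-TMB, under the 2-fold limit. As a mean over cells, Cck of rd10-vehicle (−0.87) and Sct of rd10-TMB (−0.92) were also under it. Between the rd10 libraries, 1 of 5 members with enough UMIs differed past 2-fold, against 3.56% of genes: Cartpt was lower in rd10-TMB (log2 −1.54, −1.66 to −1.43). This call rests on a few cells, since 2255 of the 2831 UMIs of rd10-vehicle were in astrocyte-like cells, where 10 of 88 cells had a UMI. Without that class the direction turned, with 576 UMIs (16.2 CPM) in rd10-vehicle against 730 (25.5 CPM) in rd10-TMB (log2 0.66, 0.50 to 0.82). The median log2 ratio over all genes was −0.21 for rd10-vehicle over WT, −0.22 for rd10-TMB over WT and 0.00 between the rd10 libraries. Whole-library values mix the number of cells of a type with the transcript per cell, so the rest of the description goes by cluster.

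Where the transcripts were found separated the members into 3 sets. Over the 3 libraries, 8.6% of Vip UMIs (5.74 to 12.3), 4.50% of Tac2 UMIs (2.08 to 8.37) and 27.3% of Tac1 UMIs (23.9 to 31.0) lay outside the amacrine-like clusters. For Cck, Sct and Cartpt this share was 98.0%, 97.7% and 92.0%. The share goes by cluster and not by cell type. Cells with amacrine genes that held Cartpt, Sct or Npy also lay in cluster 6, cluster 10 and the ganglion-like cluster, as given below. For Npy the share outside differed by library, at 40.1% (36.4 to 43.8), 86.7% (82.1 to 90.5) and 99.2% (97.7 to 99.8), beside 756, 105 and 83 amacrine-like and 530, 2492 and 1748 MG-like (Müller glia-like) cells. The clusters were made with these genes among others, and Vip, Tac1 and Tac2 were among the 10 leading genes of cluster 5, Cartpt of cluster 6, and Cck and Sct of cluster 10, so that a cluster against the rest is no test.

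**Figure D1:**
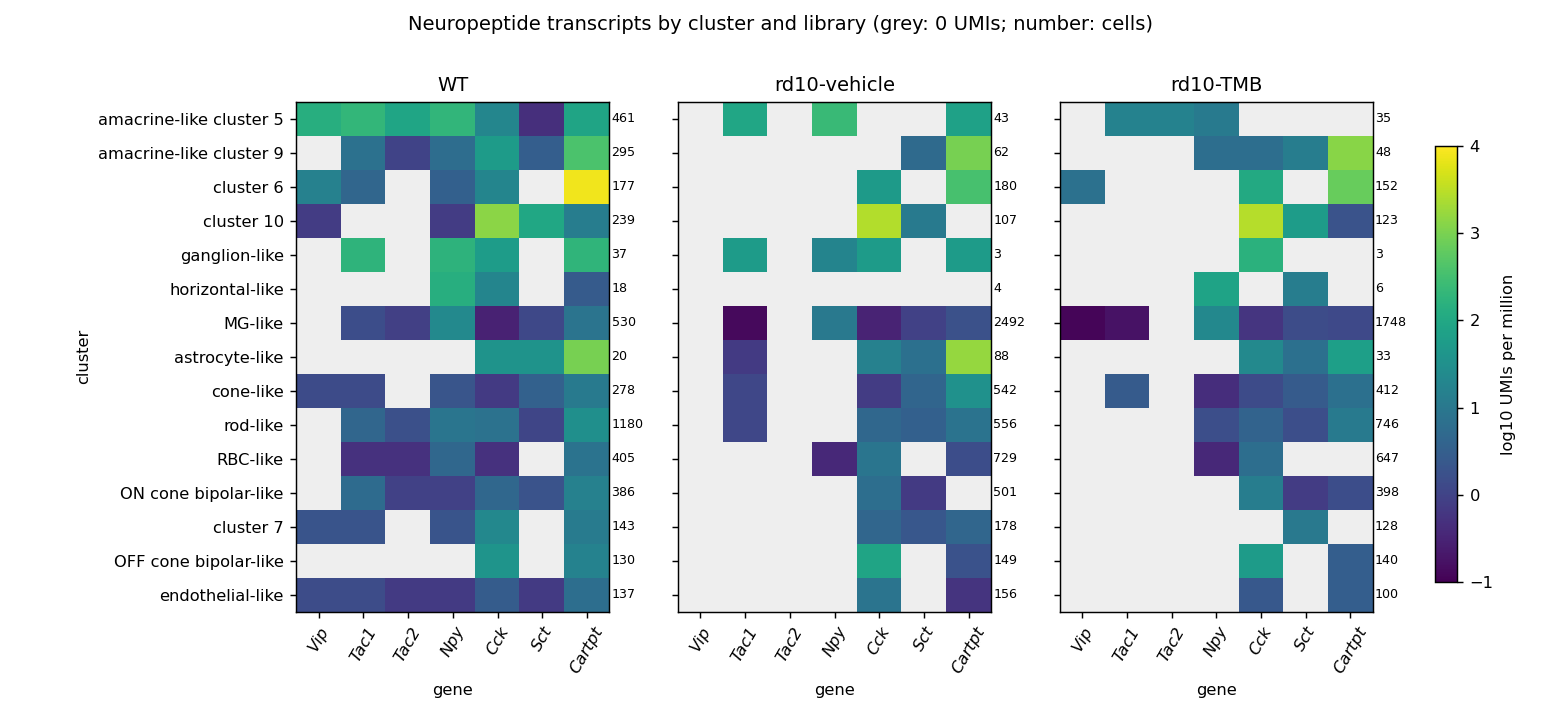
Heat map of log10 CPM of each gene (columns) in each cluster (rows), 1 panel per library, with grey for 0 UMIs and the number of cells at the right of each row. Cartpt was highest in cluster 6 of WT (7767 CPM) and Cck in cluster 10 of each library (1343, 2620 and 2762 CPM), whereas Vip and Tac2 were grey in nearly all rd10 rows.

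Counted over single clusters with at least 20 cells in both libraries, 18 of 23 member and cluster pairs differed past 2-fold between rd10-vehicle and WT, against 8.38% of 120105 gene and cluster pairs. For rd10-TMB and WT the count was 15 of 21 against 7.06%, and between the rd10 libraries 6 of 16 against 3.03%. Some of the pairs compared with WT, such as Vip and Tac2 in cluster 5, reached the limit of 20 UMIs through WT alone. The 18 include Cck in cluster 5, and the 15 include the same pair and Cck of ON cone bipolar-like cells (log2 interval −0.01 to 3.28), all with an interval that included 0. Cck in cluster 5 had 41 UMIs in WT and 0 in each rd10 library, and at the floor of 3 counts the bounds were 0.981-fold and 1.18-fold. Members whose UMIs sit in a few cells reach large ratios when 1 such cell is present or missing, and the cells behind many of the values are therefore given below. Cells with 5 or more UMIs of a gene are called rich in it. Some genes reported for rich cells were also among the markers that named their cluster, such as Gad1 in cluster 5 and Slc6a9 in cluster 9. Finding these there is no test.

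**Figure D2:**
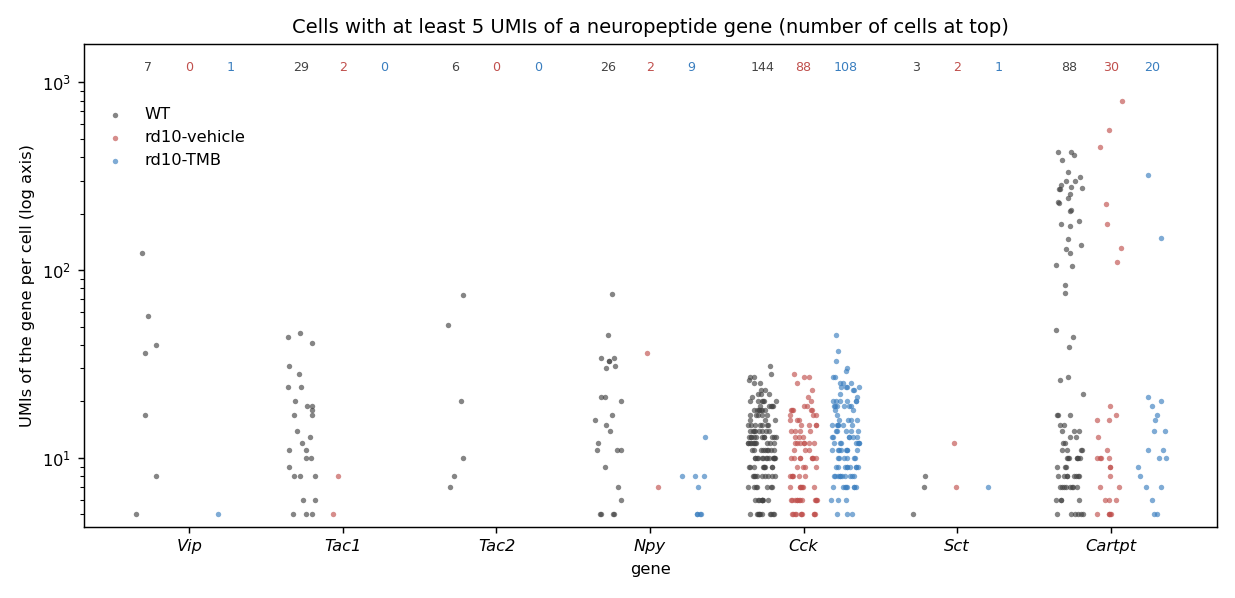
UMIs of each gene in every cell with at least 5 of them (log axis), by gene and library, with the number of such cells at the top. WT held most cells rich in Vip (7 of 8), Tac1 (29 of 31), Tac2 (6 of 6) and Npy (26 of 37), and single Cartpt-rich cells reached 426, 792 and 320 UMIs by library.

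Vip was carried by a handful of amacrine-like cells of WT. In cluster 5, 6 WT cells held 123, 57, 40, 36, 17 and 8 UMIs, and Gad1, the GABA-synthesizing enzyme, was detected in 6 of 6, as were Slc32a1, the vesicular transporter of GABA and glycine, and the transcription factor gene Tfap2b. Of all 8 Vip-rich cells of the 3 libraries, 6 also had a Cartpt UMI and 4 were rich in Cartpt, while 0 had a UMI of Tac1, Tac2, Npy, Cck or Sct. The Vip-rich cells made up 0.794% of WT amacrine-like cells (0.292 to 1.72). Neither rd10 library had one among its amacrine-like cells, but with a limit of 3 counts in place of 0 the 0 of 105 cells allows a share of up to 2.86% and the 0 of 83 up to 3.61%, so a lower share of these cells among the amacrine-like cells was not detectable at this depth. The level in amacrine-like cells was 93.4 CPM in WT and at least 10.6-fold lower in rd10-vehicle and 10.5-fold lower in rd10-TMB at a floor of 3 counts, bounds that treat the UMIs of single cells as independent. All of the WT amacrine-like UMIs of Vip were in cluster 5, which made up 461 of 756, 43 of 105 and 35 of 83 amacrine-like cells, and within cluster 5 the bounds were 6.87-fold and 8.29-fold. In rd10-TMB, 5 of the 7 Vip UMIs came from 1 cell of cluster 6.

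The tachykinin genes Tac1 and Tac2 shared part of their cells. In WT, 22 cells of cluster 5 were rich in Tac1, 2.91% of the amacrine-like cells (1.83 to 4.37), and the highest held 46, 44 and 41 UMIs. In rd10-vehicle there were 2 such cells, with 8 and 5 UMIs (1.90%, 0.232 to 6.71), and 0 of 83 in rd10-TMB. Their shares of the amacrine-like cells overlapped within counting error. Gad1 was detected in 23 of the 24 Tac1-rich cells of cluster 5. Tac2 was rich in 6 WT cells, which held 74, 51, 20, 10, 8 and 7 UMIs, and 5 of these 6 were also rich in Tac1. No rd10 cell was rich in Tac2, and 1 rd10-TMB cell held 3 UMIs.

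Among the members with at least 20 UMIs in the amacrine-like cells, 4 of 6 were past 2-fold lower in rd10-vehicle than in WT (6.68% of genes) and 5 of 6 in rd10-TMB (5.76%), with Sct under the limit of 20 UMIs there and Cartpt higher in both. The lower members had at most 14 UMIs there in rd10-vehicle and at most 3 in rd10-TMB, so they reached that limit through WT. These counts are thus no independent result. Against Xist-marked WT cells Tac1 of rd10-vehicle was at −0.31 (log2), and thinned to 1000 UMIs a cell Cck of rd10-TMB was at −0.52, both under 2-fold, while Tac2 of rd10-TMB was higher than WT as a mean over cells (0.47). In cluster 5, Tac1 stood at 206 CPM (187 to 227) in WT against 92.7 (50.7 to 156) and 16.5 (3.39 to 48.1) in the rd10 libraries. Each rd10 value rested on 3 or 2 cells with a UMI. The same WT level was not shared by the marked cells of the pool: Tac1 in cluster 5 was at 71.0 CPM in 83 cells marked by Xist and at 211 CPM in 234 cells marked by Y-linked UMIs. Likewise Vip was at 0 and 135 CPM, Tac2 at 0 and 136 CPM and Npy at 5.26 and 205 CPM, and the Vip-, Tac2- and Npy-rich cells numbered 0, 0 and 0 among the Xist-marked against 5, 4 and 7 among the Y-marked cells of cluster 5. Cartpt did not follow them there (71.0 and 64.8 CPM). The Y-marked cells of cluster 5 held 162 Vip, 164 Tac2 and 247 Npy UMIs, and the Xist-marked cells 0, 0 and 2. Both rd10 libraries are female by their labels, and the part of sex or of the single mice in these ratios was not tested.

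Outside the amacrine-like clusters, Tac1 of WT was found mainly in ganglion-like cells, the output neurons of the retina. These were 37 cells in WT and 3 in each rd10 library, too few for a ratio. In WT 7 of the 37 were rich in Tac1, and Nefl, Rbpms and Slc17a6 (a neurofilament, an RNA-binding protein and the vesicular glutamate transporter of ganglion cells) were detected in 7 of 7. The ganglion-like cells of WT held 123 Tac1 UMIs, 20.7% of those of the WT library. Those of rd10-vehicle and rd10-TMB held 3 and 0, and in rd10-TMB 6 of the 12 Tac1 UMIs of the library were in cone-like cells.

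Most Npy UMIs were in 4 clusters: cluster 5, the ganglion-like, the horizontal-like and the Müller glia-like cells. Cluster 5 held 413, 37 and 2 by library. Of these, 13 WT cells and 1 rd10-vehicle cell were Npy-rich, and that 1 cell held 36 of the 37 UMIs, so the similar levels of WT (196 CPM, 178 to 216) and rd10-vehicle (245 CPM, 173 to 338) rest on 1 cell on the rd10 side. Gad1 and Slc32a1 were detected in 14 of the 14 cells. Nos1, the neuronal nitric oxide synthase, was detected in 7 of 14 and in 0.8% of cluster 5 cells without Npy. Across clusters, 9 cells were rich in both Npy and Tac1.

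Another set of Npy-rich cells lay in the ganglion-like cluster of WT, where 8 cells together with weaker ones held 116 UMIs. Chat, Slc18a3 and Slc5a7, the genes of acetylcholine synthesis, vesicular loading and choline uptake, and Gad1 were detected in 8 of 8 and in 0% of the ganglion-like cells without Npy. Nefl was detected in 2 of the 8 and in 96.9% of the cells without Npy. Chat and Gad1 together are known from starburst amacrine cells, and the name of the cluster does not describe these 8 cells. All 3 Cck-rich cells of the ganglion-like cluster carried the same genes. Horizontal-like cells, the inhibitory interneurons of the outer retina, were the third: 13 of 18, 0 of 4 and 2 of 6 had an Npy UMI, with 50, 0 and 6 UMIs. These numbers of cells are too small for a ratio.

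The fourth were Müller glia-like (MG-like) cells, the radial glia of the retina, which held 50.1% of the Npy UMIs of the 3 libraries. There the libraries held 76, 238 and 367 UMIs in 530, 2492 and 1748 cells. The level was 22.9 CPM (18 to 28.7), 10.7 CPM (9.40 to 12.2) and 21.9 CPM (19.7 to 24.2), lowest in rd10-vehicle with overlapping intervals in WT and rd10-TMB. The log2 ratio of rd10-vehicle to WT was −1.11 (−1.47 to −0.70), where 2 of 3 members were past 2-fold lower against 4.9% of 13871 genes. That of rd10-TMB to WT was −0.08 (−0.43 to 0.31). From rd10-vehicle to rd10-TMB the ratio was 1.03 (0.79 to 1.27). This was 1 of 3 members past 2-fold higher against 0.512% of 14464 genes, but the log2 ratio was 0.90 with cells thinned to 1000 UMIs and just under 1 without the 3 cells richest in Npy, both under the limit.

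The share of MG-like cells with an Npy UMI was 9.81%, 7.5% and 12.3%. Rod-like cells, which should lack the gene, had shares of 1.36%, 0% and 0.134%, and endothelial-like cells 0.730%, 0% and 0%. The endothelial-like cells of WT were not free of neuronal transcripts: of 11 precursor processing and vesicle genes with enough UMIs there, 8 (Chga, Chgb and Scg2 among them) were past 2-fold lower in each rd10 library, with list medians of −2.81 and −2.46 (log2), against 8.47% and 8.34% of all genes lower there. The median depth over the libraries was 8652.5 UMIs in MG-like, 1454.5 in rod-like and 8314 in endothelial-like cells. After thinning each cell to 1000 UMIs the MG-like shares were 1.71% (0.784 to 3.22), 1.29% (0.886 to 1.82) and 2.37% (1.71 to 3.21), and those of rod-like cells 0.734%, 0% and 0.150%. This left out 3, 16 and 21 shallower MG-like cells and 226, 68 and 80 rod-like cells. In the thinned WT library the intervals of both classes overlapped. Npy was 73.1%, 85.9% and 94.6% of the summed Npy and Cartpt UMIs of MG-like cells, and 22.2% in WT rod-like and 15.8% in WT cone-like cells. In the rd10 libraries rod-like cells held 0 and 2 Npy UMIs and cone-like cells 0 and 1. Cartpt of MG-like cells was at 8.43, 1.76 and 1.25 CPM, so the rise of the share by library is no measure of Npy. Most positive MG-like cells held 1 UMI (34 of 52, 151 of 187 and 143 of 215). Cells with 3 or more numbered 6, 10 and 34, and Npy-rich cells 0, 1 and 9. The rd10-TMB library thus had more MG-like cells in the upper range, with a highest cell of 13 UMIs. Each of the 10 Npy-rich cells had UMIs of Glul and Crym, genes of Müller glia, while Crym was found in 0 of the 14 Npy-rich cells of cluster 5. Both genes were among the markers that named the MG-like cells, so this contrast follows from the choice of clusters and is no test. With the thinned cells the log2 ratio of rd10-vehicle to WT was −0.51, nearer to 0 and under the 2-fold limit, and that of rd10-TMB to WT was 0.39.

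**Figure D3:**
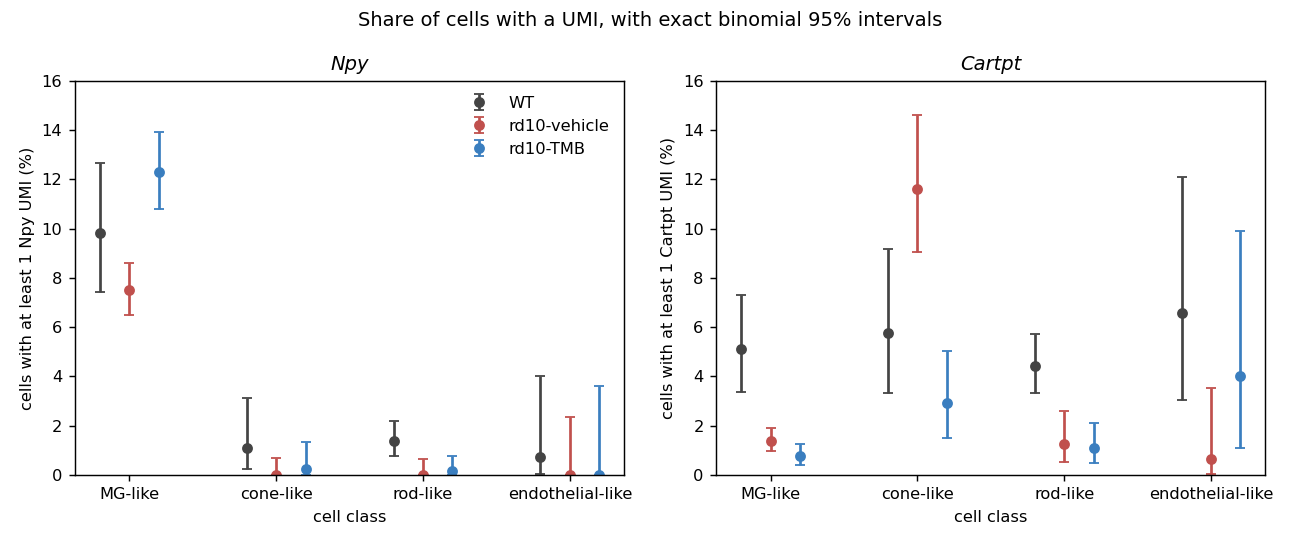
Percentage of cells with at least 1 UMI of Npy (left) and Cartpt (right) in 4 classes, with a point per library and exact binomial 95% intervals. For Npy the MG-like class stood at 9.81%, 7.5% and 12.3% and the other classes near 0, while for Cartpt the cone-like share of rd10-vehicle (11.6%) was above those of WT (5.76%) and rd10-TMB (2.91%).

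Cck belonged to cluster 10 in every library, with 1766, 949 and 1448 UMIs, 87.1% of the Cck UMIs of the 3 libraries. The level of the cluster was 1343 CPM (1281 to 1407), 2620 CPM (2456 to 2792) and 2762 CPM (2622 to 2908). Both rd10 libraries stood above WT, with log2 ratios of 0.96 (0.85 to 1.08) and 1.04 (0.94 to 1.14), the latter past 2-fold as were 2.09% of genes. That ratio was under 2-fold as a mean over cells (0.91), thinned (0.90) and against Xist-marked WT cells (0.71). The rd10 libraries differed by 0.08 (−0.04 to 0.20). These ratios depend on the mix of cells in the cluster, as follows.

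Single cells showed that cluster 10 joined cells of 2 kinds. Of its 239, 107 and 123 cells, 138, 91 and 98 held at least 3 Cck UMIs, and 90, 7 and 20 held at least 2 UMIs of Slc6a9, the glycine transporter of glycinergic amacrine cells. No cell met both limits. Of the 304 Cck-rich cells of the cluster, 293 had a UMI of Isl1, 290 of Grm6 and 303 of Trpm1, the transcription factor, glutamate receptor and channel of ON bipolar cells, against 6.45%, 4.84% and 7.26% of the cells without Cck. The Cck cells were 57.7%, 85.0% and 79.7% of the cluster. In the 149, 100 and 103 cells with fewer than 2 Slc6a9 UMIs, a split that does not use Cck, its level was 2757 CPM (2630 to 2888), 2922 CPM (2739 to 3115) and 3703 CPM (3515 to 3899). There the log2 ratio to WT was 0.08 (−0.03 to 0.20) in rd10-vehicle and 0.43 (0.32 to 0.53) in rd10-TMB, both under 2-fold, and between the rd10 libraries it was 0.34 (0.22 to 0.46). As a share of the whole library the Cck cells were 3.08%, 1.53% and 2.04%. In WT, Cck in cluster 10 was 1686 CPM in Xist-marked and 971 CPM in Y-marked cells.

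Sct was on the other side of cluster 10. It was detected in 65, 3 and 14 of its cells, and 64, 2 and 14 of these held at least 2 Slc6a9 UMIs, while 0 were among the Cck cells. The 124, 4 and 31 Sct UMIs of the cluster gave 94.3, 11 and 59.1 CPM, with rd10-vehicle far below WT (log2 −2.78, −4.99 to −1.70). In the Slc6a9 cells alone Sct was at 182 CPM (152 to 218), 79.4 CPM (16.4 to 232) and 233 CPM (158 to 330). These intervals overlapped, and the rd10-vehicle value rested on 7 cells with 3 UMIs. The Slc6a9 cells were 0.118% of the cells of rd10-vehicle, against 2.01% in WT and 0.416% in rd10-TMB.

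**Figure D4:**
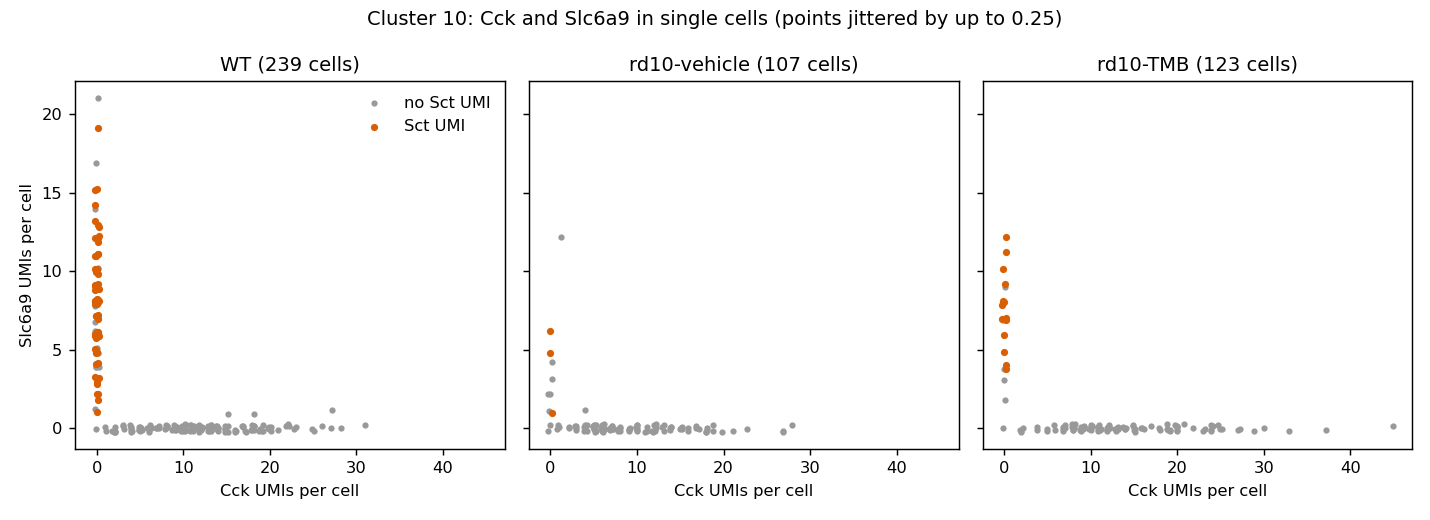
Cck UMIs against Slc6a9 UMIs of every cell of cluster 10, 1 panel per library, with cells that hold a Sct UMI in orange and points jittered by up to 0.25. The cells lie along both axes, and the Sct cells (65, 3 and 14) lie on the Slc6a9 axis.

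Cck outside cluster 10 was sparse. Cluster 6 held 10 Cck-rich cells, 1, 3 and 6 by library, of which 9 had Isl1 and 10 Trpm1, and its Cck level was 19, 52.4 and 111 CPM. RBC-like cells (rod bipolar cells) had 1, 23 and 17 UMIs, and 82.6% of those of rd10-vehicle came from 3 cells. OFF cone bipolar-like cells had 24, 46 and 35, and single cells of rd10-vehicle held 25 and 18 of its 46. Astrocyte-like cells had 12, 22 and 13, and 1 WT cell held 10 of its 12. In cluster 9, by contrast, WT had 55 UMIs in 24 cells, rd10-vehicle 0 and rd10-TMB 1. Sct outside cluster 10 was found at 12, 10 and 4 UMIs in astrocyte-like cells and at 4, 21 and 24 in MG-like cells. In the 20 and 88 astrocyte-like cells of WT and rd10-vehicle this was 37.0 and 7.11 CPM, a log2 ratio of −2.36 (−3.75 to −1.05). Of the 12 WT UMIs, 7 lay in 1 cell. In MG-like cells the log2 ratios of Sct did not reach 2-fold and their intervals included 0. Another 20 Sct UMIs lay in lens-like cells of rd10-vehicle, 19 of them in 2 cells with 12 and 7.

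Cartpt lay in several classes and in few cells of each. Cluster 6 held 65.5% of its UMIs, 6962, 244 and 469 by library, and most were in cells with at least 50. These numbered 29, 1 and 2. In the rd10 libraries the UMIs of cluster 6 came from 3 and 2 cells. Kit, a receptor tyrosine kinase gene, was detected in 31 of the 32 cells and in 0% of the cluster 6 cells without Cartpt, and Gad1 and Tfap2b in 32 of 32 against 1.30% and 1.09%. Vsx1 and Igfn1, bipolar cell genes that lead the cluster, were detected in 1 and 0 of the 32 and in 80.2% and 68.7% of the cells without Cartpt. These cells, grouped by the authors' clustering with bipolar cells, thus carried amacrine transcripts. The log2 ratio of the cluster to WT was −4.45 (−4.64 to −4.27) in rd10-vehicle and −3.52 (−3.66 to −3.39) in rd10-TMB, where 5.51% and 5.86% of genes were past 2-fold lower. The cells with at least 50 UMIs were 29, 1 and 2 of the 177, 180 and 152 cells of the cluster.

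In cluster 9 Cartpt ran the other way, higher in the rd10 libraries. Its level was 389 CPM (351 to 431) in WT and 935 CPM (802 to 1083) and 1307 CPM (1133 to 1501) in the rd10 libraries. A UMI was found in 74 of 295 cells (25.1%), 33 of 62 (53.2%) and 30 of 48 (62.5%), and after thinning to 1000 UMIs, without 25, 9 and 8 shallower cells, in 15.9%, 34.0% and 57.5%. The log2 ratios to WT were 1.27 (1.0 to 1.53) and 1.75 (1.49 to 2.0), and 5.61% and 6.42% of genes were past 2-fold higher. Between the rd10 libraries it was 0.48 (0.18 to 0.78). Among the 61 Cartpt-rich cells Slc6a9 was detected in 60 and Slc32a1 in 61, but Gad1 in 2, and the neurofilament gene Nefl in 34, against 8.21% of the cells without Cartpt. Cartpt-rich cells of cluster 9 numbered 31, 16 and 14, so the rd10 libraries held fewer of them, but a larger part of the 295, 62 and 48 cells of the cluster. In the marked WT cells the level was 398 CPM (Xist) and 487 CPM (Y-linked), both below the rd10 levels.

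In astrocyte-like cells Cartpt had 305, 2255 and 37 UMIs. These came from very few cells: 2 of 20, 10 of 88 and 3 of 33 had a UMI. In rd10-vehicle single cells held 792, 558 and 451 UMIs, the highest of any member in any cell. Of the 7 cells with at least 50 UMIs, 1 in WT and 6 in rd10-vehicle, S100b and Pax2, astrocyte genes, were detected in 7 and 6, Kit in 6 and Pdgfra in 3, whereas Pdgfra was detected in 99.2% of the astrocyte-like cells without Cartpt. Kit was present in 61.9% of the latter. In this class rd10-TMB stood below rd10-vehicle, with a log2 ratio of −4.57 (−5.12 to −4.14), whereas in clusters 6 and 9 it stood above (log2 0.92 and 0.48). The intervals treat the UMIs of a cell as independent. In cluster 6 single cells held 320 and 149 UMIs in rd10-TMB and 226 in rd10-vehicle, so the directions in this class and in cluster 6 rest on a few cells.

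Ganglion-like cells of WT included 9 Cartpt-rich cells, and Nefl, Rbpms and Slc17a6 were detected in 9 of 9. In cluster 5 Cartpt had 176, 11 and 0 UMIs, and the 11 of rd10-vehicle came from 1 cell. Rod-like cells had 31.1, 8.13 and 11.1 CPM and MG-like cells 8.43, 1.76 and 1.25 CPM, in WT nearly all as single UMIs. These low levels were highest in WT, the library with the most Cartpt in all.

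Cartpt in cone-like cells is a gene that the study chose from these same libraries, so its direction is not independent evidence. There were 16, 87 and 15 UMIs in 278, 542 and 412 cells, or 11.2, 33.9 and 6.90 CPM, with a log2 ratio of 1.52 (0.82 to 2.46) for rd10-vehicle over WT and −2.22 (−3.19 to −1.50) for rd10-TMB over rd10-vehicle. Of all genes tested in these cells 2.05% were past 2-fold higher in the first comparison and 1.21% lower in the second. Cells with a UMI were 5.76% in WT against 4.41% of rod-like and 6.57% of endothelial-like cells, and 2.91% in rd10-TMB against 1.07% and 4.00%, so neither was above the share in endothelial-like cells, which in WT also held neuronal transcripts, as given for Npy. In rd10-vehicle it was 11.6% against 1.26% and 0.641%. The median depth of cone-like cells was 5125.5 UMIs, and after thinning to 1000 UMIs, without 5, 11 and 15 shallower cells, the cone-like shares were 1.10%, 2.64% and 1.01% with overlapping intervals, and the difference between the rd10 libraries fell just under the 2-fold limit. Of the 63 positive cone-like cells of rd10-vehicle, 48 held 1 UMI and 1 held 5. Among the cone-like cells whose mitochondrial share did not exceed 10%, the levels were 11.6 (6.00 to 20.3), 27.4 (18.7 to 38.7) and 11.7 CPM (5.83 to 20.9). In the others they were 10.2 (2.78 to 26.1), 39.4 (29.7 to 51.2) and 3.25 CPM (0.885 to 8.31). Rd10-vehicle was the highest in both sets, but in the first its interval overlapped those of WT and rd10-TMB.

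**Figure D5:**
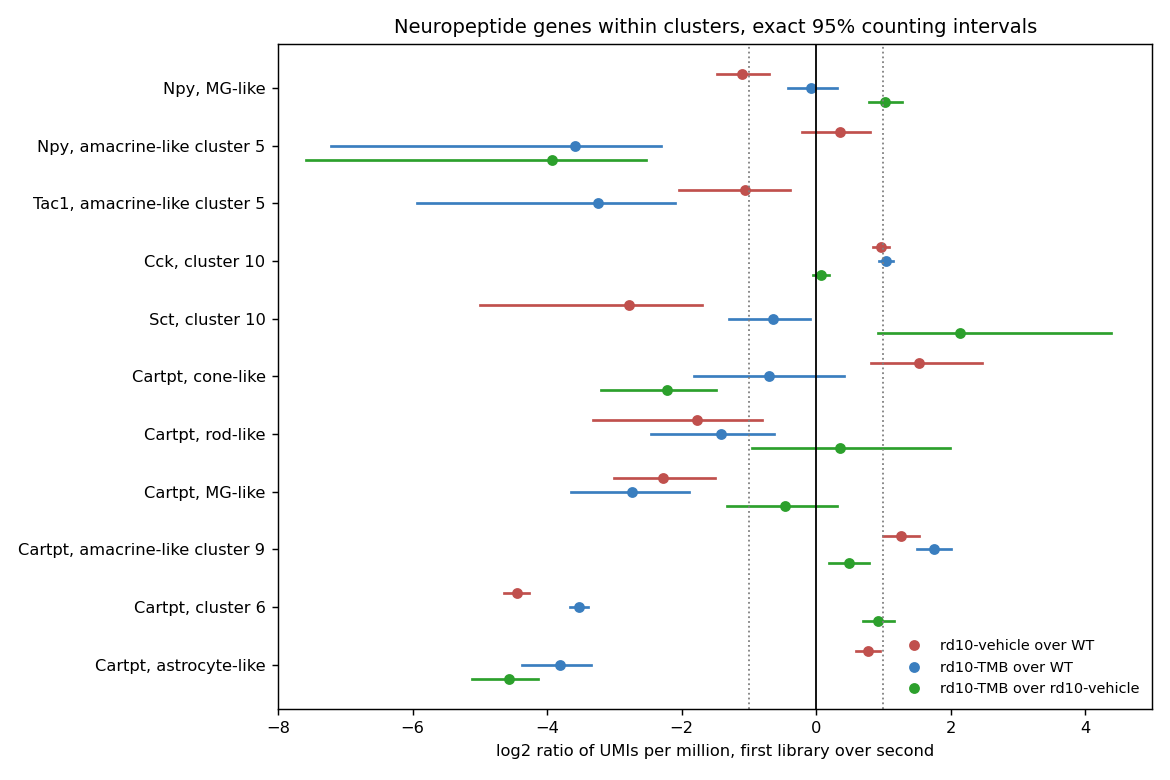
Log2 ratios of CPM within clusters for 11 gene and cluster pairs, with exact 95% counting intervals and dotted lines at 2-fold. Cartpt lay right of 0 against WT in cluster 9 (1.27 and 1.75) and left of it in cluster 6 (−4.45 and −3.52), and Npy in MG-like cells lay at 1.03 for rd10-TMB over rd10-vehicle and at −0.08 for rd10-TMB over WT.

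Across 20 clusters of at least 20 cells, over the summed libraries and 13331 genes with 200 or more UMIs, profiles like those of the members were as follows. Tac1 was close to Elavl2, an RNA-binding protein gene (Pearson r 0.95 of log values across clusters), and Kcnk9 (0.94). Vip was closest to Pantr1 (0.89) and C1ql2 (0.88), and Tac2 to Cbln2 (0.90) and Vip (0.87). These clusters share libraries, and r is a description. Cartpt was closest to Kcnip1 (0.85) and the cannabinoid receptor gene Cnr1 (0.78), Cck to Gm45847 (0.80) and the calcium pump gene Atp2b2 (0.77), and Npy to Eif2s2 (0.83). Sct had no profile above 0.56.

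The receptors of these peptides were mostly sparse. Of 14 listed receptor genes 10 were in the table and 7 had at least 20 UMIs in the pairs compared. In whole libraries 5 of 7 were past 2-fold lower in rd10-vehicle than in WT (Vipr2, Tacr1, Tacr3, Npy1r and Npy6r) and 4 of 7 in rd10-TMB, against 13.5% and 11.8% of all genes. Between the rd10 libraries 0 of 7 differed past 2-fold, against 3.56%. The median log2 ratio of the list was −1.04 for rd10-vehicle and −1.47 for rd10-TMB. Vipr2, a receptor of vasoactive intestinal peptide, had 1029, 987 and 913 UMIs, and in ON cone bipolar-like cells its level was 258, 234 and 231 CPM. Other classes differed from this one: Vipr2 was past 2-fold lower than in WT in MG-like cells of both rd10 libraries (35.2, 13.8 and 17.3 CPM), in rod-like cells of rd10-vehicle (log2 −1.11) and in amacrine-like cells of rd10-TMB (5 UMIs, −1.04), and higher in cluster 10 of rd10-vehicle (1.04). Tacr1, lower in the whole rd10-vehicle library, was past 2-fold higher than WT in cluster 5 of rd10-vehicle (12 UMIs, log2 1.29, 0.18 to 2.09). Cckbr, a cholecystokinin receptor, was a cone-like transcript, with 110 of 115, 159 of 186 and 145 of 165 UMIs in those cells and 77.2, 62.0 and 66.7 CPM. Tacr3, the neurokinin B receptor, had 252, 34 and 27 UMIs, of which 144, 14 and 5 were in endothelial-like cells. Tacr3 is a marker of OFF cone bipolar cells, and the endothelial-like cells of WT held other neuronal transcripts as well, as given above. The part of such transcripts in the Tacr3 difference was not tested.

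Of 17 genes for precursor processing and dense core vesicles, 9 were past 2-fold lower and 2 higher in rd10-vehicle than in WT, and 7 lower and 2 higher in rd10-TMB. Of all genes 13.5% and 11.8% were lower and 11.5% and 8.14% higher, so the 2 higher genes are near the share of all genes. The median log2 ratio of the list was −1.01 and −0.82 in whole libraries. In amacrine-like cells it was 0.06 and 0.07, beside 0.06 and 0.10 for all genes there. Single genes differed by cluster: Ptprn was higher in rd10-vehicle than in WT in rod-like cells (log2 3.51) and lower in cluster 6 (−1.45). In whole libraries Pcsk1, a convertase gene, was the 1 gene of the list past 2-fold between the rd10 libraries (149, 12 and 32 UMIs, log2 1.69). There 1 of 17 is near the 3.56% of all genes. Within classes other genes of the list also passed the limit. From rd10-vehicle to rd10-TMB, Cadps2 (log2 −3.58) and Ptprn (−1.12) were lower in cone-like cells, among others. Chgb went the other way in astrocyte-like cells, at 9.95 and 28.4 CPM. Vgf, a granin family gene, had 407, 39 and 40 UMIs, and in cluster 5 280, 3 and 1. Chgb and Scg2, granin genes of vesicle cores, stood at 906, 649 and 768 CPM and at 923, 1073 and 795 CPM in cluster 5, within 2-fold across libraries. Of the 15 genes of the list with enough UMIs in cluster 5, Vgf was lower and Ptprn2 higher (log2 1.02) in rd10-vehicle than in WT, and Vgf and Chga lower (Chga −1.08) and Pcsk1 higher (1.46) in rd10-TMB. These 2 and 3 of 15 genes stand beside 17.2% and 15.2% of all genes past 2-fold either way.

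Among other peptide precursors, 22 of 41 listed were in the table. Of 20 with enough UMIs, 4 were past 2-fold higher and 7 lower in rd10-vehicle than in WT, and of 19 in rd10-TMB, 3 higher and 6 lower. The shares of all genes were 11.5% and 8.14% higher and 13.5% and 11.8% lower. Between the rd10 libraries 2 of 18 were higher and 2 lower, against 0.813% and 2.75% of all genes. The median log2 ratio was −0.16 and −0.37, near that of all genes. Calca, the precursor of calcitonin and CGRP, had 56, 3434 and 2021 UMIs, of which 41, 3376 and 2001 were in MG-like cells, at 12.4, 152 and 119 CPM. In the cells in which Npy was lowest in rd10-vehicle, Calca was thus highest there. Pdyn, the prodynorphin gene, also lay in MG-like cells but at like levels (43.1, 38.3 and 38.9 CPM). Gal, the galanin precursor gene, was found in cluster 5 with 3, 0 and 21 UMIs. Of 5 peptide-degrading enzymes, 2 were lower and 1 higher in rd10-vehicle than in WT, the latter being Mme, the gene of neprilysin, and 1 was lower in rd10-TMB than in WT, beside 13.5% lower and 11.5% higher of all genes in rd10-vehicle and 11.8% lower in rd10-TMB. Mme had 10, 155 and 30 UMIs. In whole libraries it was the 1 of the 5 past 2-fold between the rd10 libraries (log2 −1.99 for rd10-TMB over rd10-vehicle, against 2.75% of all genes lower). Within classes the same ratio also passed the limit for Dpp4 in MG-like (1.28) and endothelial-like cells (1.52). For Ace it did so in astrocyte-like cells (1.32).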

How the data were processed

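Retinas were dissociated with papain and made into 1 droplet library per group (10x v3 chemistry). The authors aligned reads to mm10 with Cell Ranger 6.0.1, removed doublets with Scrublet before deposit, kept cells with at least 500 genes in Seurat 3.2.2 and clustered them after Harmony correction. Values were deposited on a natural log scale, as ln(1 + UMIs scaled to 10000 per cell). Whole UMI counts were recovered from it with the deposited total per cell: 100% of 32620606 entries were whole within 0.001 UMI, and 15242 of 15242 cells summed to their total. No cell filter or doublet caller was added. UMIs were summed per cluster and library and scaled to CPM. Ratios carried a pseudocount of 1 UMI, needed 20 UMIs over both libraries and exact conditional intervals, shares exact Clopper-Pearson intervals and sums exact Poisson intervals. A count of 0 was read as at most 3. No p-value was computed, and the ratio script was tested on simulated data. Cluster names needed 3 markers at 2-fold and 20 CPM. Every member was named, and genes of the 4 pathway lists by most UMIs or a 2-fold ratio. Some results are not reported here. Members and lists were chosen with earlier results of these data known. Python 3.11.15, pandas 2.3.3 and scipy 1.17.1 were used.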

Additional observations from a re-analysis of the deposited data

Results flagged for a closer look

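The following pairs of clusters moved in opposite directions under the same comparison. The differences were not tested, since each group was 1 library, and they are given as log2 ratios of CPM. For Cck, rd10-vehicle over WT was 3.17 in RBC-like cells and −3.44 in cluster 9, where rd10-vehicle had 0 UMIs, and rd10-TMB over WT was 2.48 in cluster 6 and −2.15 in cluster 9, where rd10-TMB had 1 UMI (−8.45 to −0.58). For Cartpt, rd10-vehicle over WT was 1.52 in cone-like cells and −4.45 in cluster 6, and rd10-TMB over WT was 1.75 in cluster 9 and −3.94 in cluster 5, where rd10-TMB had 0 UMIs. The values for the libraries at 0 UMIs depend on the pseudocount of 1 UMI and are no bounds: at a floor of 3 counts Cck in cluster 9 was at least 3.55-fold lower and Cartpt in cluster 5 at least 5.09-fold lower than in WT. For Npy, rd10-TMB over rd10-vehicle was 1.03 in MG-like cells and −3.94 in cluster 5, with 2 against 37 UMIs, where 36 of the 37 UMIs of rd10-vehicle lay in 1 cell.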

How the results depend on the processing

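No paired analysis was possible because each group has 1 library. The 93 log2 ratios were recomputed under 11 other settings, and those of Cck in cluster 10 without its Slc6a9 cells and of Cartpt without astrocyte-like cells, 2 settings chosen after seeing the data, which gave 916 values. Of these 768 stayed within the counting interval, 143 moved and 5 reversed, and 90 more could not be given because fewer than 20 UMIs were left. Of 650 values of ratios past 2-fold, 615 stayed past it the same way. Leaving out cells whose barcode occurs in a pair of libraries, a choice made after seeing the data, moved 0 ratios. Rich cells defined by 3 or 10 UMIs, also chosen after seeing the data, moved 1 and 4 of 21 shares. The causes of the changes below were not tested. Single cells limit the depth: the Cartpt UMIs of cluster 6 in the rd10 libraries lay in 3 and 2 cells.

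Reversed were Cartpt of the whole library, rd10-TMB over rd10-vehicle, without astrocyte-like cells (0.66), Tac2 of rd10-TMB over WT as a mean over cells (0.47 in amacrine-like cells, 1.0 in cluster 5), and, against Xist-marked WT cells alone, Tac1 of rd10-vehicle over WT in cluster 5 (0.43) and Cck in astrocyte-like cells (0.92). With cells thinned to 1000 UMIs, Npy in MG-like cells was −0.51 for rd10-vehicle and 0.39 for rd10-TMB over WT. Cartpt in cluster 9 then was 1.55 and 2.20. Cartpt in cone-like cells, rd10-TMB over rd10-vehicle, was −0.995 thinned, no longer past 2-fold, and −1.15 in cells with at most 10% mitochondrial UMIs. Cartpt in cluster 6, rd10-vehicle over WT, was −4.76 as a mean over cells, −5.13 thinned, −3.99 against Xist-marked cells, −10.88 without the 5% of cells with the most UMIs, which left 1 UMI in rd10-vehicle, and −12.11 without the 3 cells richest in Cartpt. For rd10-TMB over WT it was −3.06 against Xist-marked cells, −3.00 without the 5% and −12.13 without the 3 cells. Without the 3 cells 0 UMIs were left in either rd10 library, so −12.11 and −12.13 come from the pseudocount and are no bounds. For rd10-TMB over rd10-vehicle it was 1.30 as a mean, 1.5 thinned and 7.88 without the 5%, against that 1 UMI. Cck in cluster 10 over WT was 0.69 and 0.91 as a mean over cells, 0.65 and 0.90 thinned, 0.64 and 0.71 against Xist-marked cells and 0.085 and 0.43 without Slc6a9 cells, and between the rd10 libraries 0.21 as a mean, 0.24 thinned and 0.34 without Slc6a9 cells. At a limit of 1.5-fold, 11 in place of 6 member and cluster pairs differed between the rd10 libraries.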
